A study of Mus musculus with 18 samples.

Results

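The transcripts described here are the RIKEN-named noncoding RNAs of the mouse testis: annotated transcripts in the deposited noncoding table whose gene symbol ends in Rik and is not also the symbol of a gene in the deposited mRNA table. There were 3724 such transcripts of 1978 symbols, among 33433 rows of the noncoding table. The study sequenced total RNA from whole testis of adult C57BL/6 mice that carried a knock-in allele of Taf7l or the wild-type gene, with 3 libraries of each genotype. Taf7l is X-linked and encodes a paralog of TAF7 made in germ cells, where it can take part in the TFIID complex that starts transcription, and the study's title places the mouse allele beside a missense mutation of the human gene. The labels do not say which change the knock-in allele carries, whether libraries came from separate animals, or at what exact age the mice were used. The other 12 samples in the labels, marked PS and RS, were not analysed here.

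A RIKEN symbol is the name of a full-length cDNA clone from the FANTOM mouse transcriptome project, and its first 4 characters name the cDNA library in which the clone was found. Such a symbol stays in use as a placeholder until a function is known. Most of these genes are long noncoding RNAs, a class that the testis makes in unusual variety, above all in meiotic and postmeiotic germ cells. Many noncoding RNAs begin next to a coding gene and are transcribed away from it, so that both genes share the DNA between their starts. For nearly all of the transcripts below no function is known, and roles are given only where one is.

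Of the 1978 symbols, 1506 matched a gene of RefSeq (assembly GRCm38.p6, which is mm10), 15 of them through an older name. RefSeq lists 1440 as long noncoding RNA, 30 as transcribed pseudogenes and 22 as protein-coding, among other types. Promoter windows of 250 bases before and 50 from the transcript start on were held for 1185 symbols, 1387 windows in all. Each is given below 5′ to 3′ on the strand of its gene. The first is shown because its gene starts next to that of Tnp1, and its capitals mark the 136 bases between the starts of both genes (chr1:73015786-73016085, plus strand). The next belongs to the most abundant transcript, and its capitals mark the 50 transcribed bases (chr7:125368611-125368910, plus strand). Each of the other 4 belongs to the tested transcript with the highest FPKM among those whose window holds a motif, and its capitals mark that motif. These are a TATA box (chr13:31582464-31582763, minus strand), a cAMP response element (chr6:91440737-91441036, plus strand), the core site of RFX factors (chr2:152654281-152654580, minus strand) and a MYB site (chr11:34299492-34299791, plus strand).
1700027A15Rik: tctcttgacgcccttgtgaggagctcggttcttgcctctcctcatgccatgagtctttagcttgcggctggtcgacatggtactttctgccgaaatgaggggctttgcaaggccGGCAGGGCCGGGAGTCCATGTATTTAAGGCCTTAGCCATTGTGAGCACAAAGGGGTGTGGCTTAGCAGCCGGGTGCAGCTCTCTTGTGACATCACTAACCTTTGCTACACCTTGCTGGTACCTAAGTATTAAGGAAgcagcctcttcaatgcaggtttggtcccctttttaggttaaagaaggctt
4930571K23Rik: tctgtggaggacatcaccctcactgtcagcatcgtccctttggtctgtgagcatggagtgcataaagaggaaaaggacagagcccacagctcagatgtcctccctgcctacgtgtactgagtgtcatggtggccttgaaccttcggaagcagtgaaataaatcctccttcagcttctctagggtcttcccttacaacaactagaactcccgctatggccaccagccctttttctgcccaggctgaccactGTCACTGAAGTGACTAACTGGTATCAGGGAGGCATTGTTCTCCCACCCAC
1700018A04Rik: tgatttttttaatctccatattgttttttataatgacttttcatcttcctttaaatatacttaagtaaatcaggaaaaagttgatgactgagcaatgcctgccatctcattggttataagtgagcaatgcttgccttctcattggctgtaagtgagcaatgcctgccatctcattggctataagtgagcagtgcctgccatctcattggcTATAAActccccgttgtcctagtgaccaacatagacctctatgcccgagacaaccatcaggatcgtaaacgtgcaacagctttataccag
1810044D09Rik: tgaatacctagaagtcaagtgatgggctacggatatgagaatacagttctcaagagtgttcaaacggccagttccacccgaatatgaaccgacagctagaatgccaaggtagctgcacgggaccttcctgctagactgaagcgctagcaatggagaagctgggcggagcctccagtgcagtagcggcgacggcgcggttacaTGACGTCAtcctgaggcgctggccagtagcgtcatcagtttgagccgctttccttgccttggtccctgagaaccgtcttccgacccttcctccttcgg
1700030C14Rik: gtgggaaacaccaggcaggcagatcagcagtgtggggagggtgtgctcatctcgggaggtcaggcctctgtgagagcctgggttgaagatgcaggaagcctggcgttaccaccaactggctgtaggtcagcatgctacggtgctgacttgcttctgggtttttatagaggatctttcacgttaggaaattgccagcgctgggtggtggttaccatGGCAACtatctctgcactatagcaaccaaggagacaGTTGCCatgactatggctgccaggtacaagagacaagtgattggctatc
4930403D09Rik: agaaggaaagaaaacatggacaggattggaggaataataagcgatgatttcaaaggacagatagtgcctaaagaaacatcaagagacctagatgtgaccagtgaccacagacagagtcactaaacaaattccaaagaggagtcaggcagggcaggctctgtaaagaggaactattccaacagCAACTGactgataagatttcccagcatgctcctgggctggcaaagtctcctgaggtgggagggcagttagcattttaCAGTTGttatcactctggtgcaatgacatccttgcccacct

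The motifs were searched as letters only. TATAAA was read on the gene's strand in the bases -40 to -15, and TGACGTCA (the cAMP response element, bound in spermatids by CREM), GTTGCC (the RFX core site) and CAACTG (a site that MYB proteins bind, among them A-MYB of spermatocytes) were read on both strands over the whole window. The motifs can overlap. TGACG, the core of the response element, lies within TGACGTCA and was held by 19.8% of RIKEN-named windows, against 20.8% of all. CAGTTG, the MYB site on its other strand, shares GTTG with the RFX site, and the joined letters CAGTTGCC stood in 1.23% of RIKEN-named windows, against 1.10% of all. Among the windows of RIKEN-named symbols, 17.7% held CAACTG, against 13.7% of all 32851 promoters in the table and 15.8% of RefSeq lncRNA promoters. For the 495 windows of tested transcripts whose clone came from a testis library, that share was 23.4%. GTTGCC was held by 15.4% of the RIKEN-named windows and 18.8% of those 495, against 12.5% of all promoters and 12.3% of lncRNA promoters. In those 495 windows the joined letters of both sites stood in 2.42%. TATAAA was held by 1.23% of RIKEN-named windows and 0.808% of the 495, against 1.99% of all promoters and 1.01% of lncRNA promoters. TGACGTCA was held by 1.73% of RIKEN-named windows and 2.42% of the 495, against 1.79% of all promoters and 0.975% of lncRNA promoters. The median window of a RIKEN-named symbol held 5 CG dinucleotides, against 7 over all promoters and 13 over coding ones. These shares describe letters in a window, differ in base composition between the groups, and were not tested.

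The 2 RFX core sites of 1700030C14Rik began 35 bases before its start and 1 base after it, and the second of them overlaps a MYB site that begins 1 base before the start. The cAMP response element of 1810044D09Rik began 48 bases before the start, in a window with 19 CG dinucleotides. None of the transcripts shown for a motif was called between genotypes. 1700030C14Rik (ENSMUST00000139912) averaged 40.2 ± 3.07 FPKM in knock-in libraries and 38.9 ± 3.72 FPKM in wild-type libraries (SD, n = 3 each), where FPKM is the authors' fragment count scaled by transcript length and library depth. 1810044D09Rik (ENSMUST00000186472) averaged 54.4 ± 2.75 FPKM in knock-in libraries and 47.5 ± 1.13 FPKM in wild-type libraries (SD, n = 3 each). The edgeR adjusted p was 0.883 for 1700030C14Rik and 0.429 for 1810044D09Rik. 1700018A04Rik (ENSMUST00000126138), with the TATA box, averaged 9.05 ± 0.568 FPKM in knock-in libraries and 7.41 ± 0.386 FPKM in wild-type libraries (SD, n = 3 each), with an edgeR adjusted p of 0.555. For 1810044D09Rik and 1700018A04Rik every knock-in library lay above every wild-type library. These 3 were chosen after their values were seen.

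The tissue label held. Markers of spermatogonia, spermatocytes, round and elongating spermatids, Sertoli, Leydig and peritubular myoid cells were all above 0, and of 4 epididymis markers 1 was at 0 and the sum stayed between 3.48 and 18.8 CPM in knock-in libraries and between 3.35 and 24.7 CPM in wild-type libraries. The summed level did not overlap between genotypes for 2 of the marker lists: Leydig cells, at 1027 to 1047 CPM in knock-in libraries and 888 to 1025 CPM in wild-type libraries, and peritubular myoid cells, at 169 to 195 CPM in knock-in libraries and 143 to 165 CPM in wild-type libraries. No marker of either list was called, and their part in the values below was not tested. Noncoding counts per library ran between 1384224 and 1647421, and mRNA counts between 17431309 and 21446420. Taf7l mRNA itself had 472, 525 and 581 counts in knock-in libraries, against 507, 551 and 531 counts in wild-type libraries, with a log2 fold change of -0.11 and an edgeR adjusted p of 0.632. Scaled for depth, it averaged 26.8 ± 0.745 CPM in the knock-in and 29.0 ± 1.25 CPM in the wild type (SD, n = 3 each), without overlap. A knock-in need not alter the level of its own mRNA, so this does not check the genotype.

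RIKEN-named transcripts were well represented in the testis. Of the 3724, 2917 had a count above 0 in at least one library and 807 had none. The filter on low counts (filterByExpr) kept 1344 transcripts of 952 symbols, or 36.1%, against 27.8% of the whole noncoding table and 15.3% of transcripts with a provisional Gm symbol. Among the 1344, 504 averaged under 1 FPKM, 695 lay between 1 and 10, 137 between 10 and 100, and 8 at 100 or more. A few transcripts carried much of the signal. The 10 most abundant held 22.2% of all RIKEN-named counts, and the 100 most abundant held 58.3%.

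The source of the cDNA clone went with expression. Prefixes 1700, 4921, 4922, 4930, 4931, 4932 and 4933 were taken as those of the adult testis libraries from general knowledge of the RIKEN clone names, since the files do not give a clone's source. Clones with these prefixes named 1713 transcripts, of which 1016, or 59.3%, passed the filter, against 328 of 2011, or 16.3%, of those named after clones of other libraries. The tested transcripts of testis clones had a median of 1.89 FPKM, against 0.654 FPKM for tested transcripts of other clones. Testis clones held 84.2% of all RIKEN-named counts. Prefix 4930 alone named 748 transcripts, of which 436 passed the filter, and prefix 1700 named 669, of which 391 passed. By contrast, 3 of the 60 transcripts with prefix 2310 passed.

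**Figure D1:**
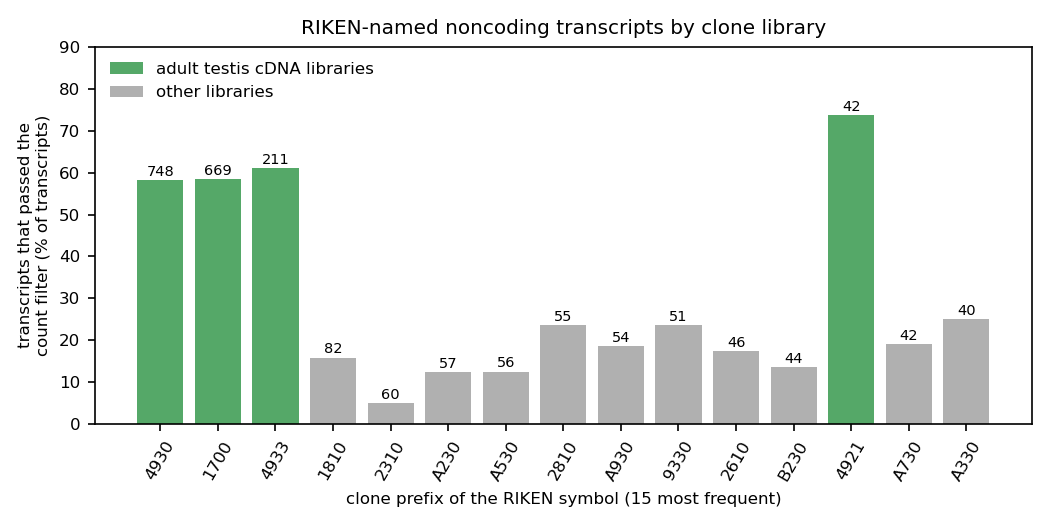
Share of transcripts that passed the count filter, in percent (vertical axis), for the 15 most frequent clone prefixes of RIKEN symbols (horizontal axis); the number above each bar is the number of transcripts. The 4 prefixes of adult testis cDNA libraries (green) lie between 58.3% and 73.8%, and the other 11 (grey) between 5% and 25%.

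The summed level of the class was close in both genotypes. RIKEN-named transcripts took 13.6%, 12.9% and 13.5% of noncoding counts in knock-in libraries, against 13.1%, 12.9% and 12.8% in wild-type libraries. The ranges overlapped, with means of 13.3 ± 0.351% in the knock-in and 12.9 ± 0.155% in the wild type (SD, n = 3 each, exact permutation test, two-sided, p = 0.2). Adjusted over the 4 sums compared, p was 0.267, and 3 libraries against 3 cannot go below 0.1. Testis-clone transcripts alone took 11.3 ± 0.350% in the knock-in and 10.9 ± 0.178% in the wild type (SD, n = 3 each, exact permutation p = 0.2). Transcripts of other clones took 2.08 ± 0.0360% in the knock-in and 2.09 ± 0.0437% in the wild type (SD, n = 3 each, exact permutation p = 0.8). The log2 ratio of RIKEN-named to Gm-named counts was 0.06 ± 0.05 in the knock-in and -0.00 ± 0.03 in the wild type (SD, n = 3 each, exact permutation p = 0.2). In whole tissue, fewer cells of a type and less RNA per cell cannot be told apart.

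At the level of the single transcript, none of the 1344 tested was called different between genotypes at an adjusted p under 0.05 by edgeR's quasi-likelihood test, where 0.0968% of all 9301 tested noncoding transcripts were called. Without adjustment, 113 had a p under 0.05, of which 78 were higher and 35 lower than in the wild type. That is 8.41% of the tested RIKEN-named transcripts, against 8.97% over the noncoding table, where 4.81% were higher and 4.16% lower. For 224 transcripts, or 16.7%, every knock-in library lay on one side of every wild-type library, above in 136 and below in 88. The share over the noncoding table was 16.0%, with 8.33% higher and 7.63% lower. The median log2 fold change was 0.04 (quartiles -0.17 and 0.26), against 0.00 over all tested noncoding transcripts. Of the 1344, 51 differed by at least 2-fold in either direction, against 488 of all 9301 tested noncoding transcripts. Within testis clones, the median was 0.06, with 118 transcripts (11.6%) above and 59 (5.81%) below without overlap. Within other clones it was -0.05, with 18 (5.49%) above and 29 (8.84%) below. Testis-clone transcripts were also shorter, with a median implied length 0.915 times that of all tested noncoding transcripts, against 1.56 times for other clones. Medians by class of length are given below.

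The call depended on the test and on how low counts were treated. DESeq2 called 10 RIKEN-named transcripts, where it called 0.804% of all noncoding transcripts with an adjusted p, and edgeR with no filter called 9, where it called 0.565% of all. On log2 FPKM, limma called 3 with a pseudocount of 0.1 (0.247% of all tested) and 5 with a pseudocount of 1 (0.419% of all tested). The authors' deposited table also lists 10, where 0.341% of its rows are listed at that threshold, 8 above and 2 below the wild type, and they are the same 10 that DESeq2 called. This is not a second line of evidence, since the deposited adjusted p equals that of DESeq2 within 0.1% for all 14184 transcripts for which DESeq2 gave one. The 10 transcripts belong to 1700006J14Rik, 1700008K24Rik, 1700017G19Rik, 1700027A15Rik, 1700029M20Rik, 1700047A11Rik, 2610035D17Rik, 3830408C21Rik, 4930461G14Rik and 4930471G03Rik. Those of 1700017G19Rik, 1700047A11Rik, 2610035D17Rik and 3830408C21Rik were at 0 in every library of one genotype. With counts summed per symbol before the edgeR test, 0 of 992 symbols were called (0.111% over all symbols), and the smallest adjusted p was 0.0741. Since no transcript passed the main test, the transcripts below are given by their values and by whether genotypes overlap, as a description.

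The 6 transcripts with the smallest p among those higher in the knock-in had no overlap between genotypes. They were picked by that p, so their lack of overlap was nearly fixed by the choice and adds no support. Of all tested noncoding transcripts, 16.0% did not overlap. 1700006J14Rik (ENSMUST00000041178, gene at chr10:120364134-120386908) had 519, 489 and 598 counts in knock-in libraries, against 356, 333 and 312 counts in wild-type libraries. Its level was 352 ± 14.5 CPM in the knock-in and 233 ± 8.52 CPM in the wild type (SD, n = 3 each), where CPM is the count scaled by noncoding library depth after TMM. The log2 fold change was 0.59 ± 0.09 (standard error), with an edgeR adjusted p of 0.0700. A second transcript of this gene, ENSMUST00000160091, had 540, 511 and 537 counts in knock-in libraries, against 448, 450 and 384 counts in wild-type libraries. It was also higher in every knock-in library, by 0.23 ± 0.09 on the log2 scale. Summed over its 4 transcripts, the gene had a log2 fold change of 0.39 ± 0.07, with an edgeR adjusted p of 0.0911 over all symbols.

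4930471G03Rik (ENSMUST00000235667, gene on chromosome 18) had 935, 970 and 1169 counts in knock-in libraries, against 738, 688 and 606 counts in wild-type libraries. Every knock-in library lay above every wild-type library, with a log2 fold change of 0.51 ± 0.08 and an edgeR adjusted p of 0.0930. For 4930461G14Rik (ENSMUST00000181967, gene at chr9:58455173-58469623), the only transcript of its symbol, the counts were 91, 95 and 110 in knock-in libraries, against 49, 51 and 39 in wild-type libraries. That is a log2 fold change of 1.00 ± 0.17 with an edgeR adjusted p of 0.0970, and the 3 libraries of each genotype lay close together. The fourth of this kind, 1700027A15Rik, is described with its neighbour Tnp1 below.

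The remaining pair of this group was at 0 in one genotype. ENSMUST00000202778 of 1700017G19Rik (gene at chr3:40504865-40522912) had 71, 76 and 35 counts in knock-in libraries, against 0 in each wild-type library. Set against a floor of 3 counts over the wild-type group, it was at least 57.1-fold higher in the knock-in. ENSMUST00000127263 of 2610035D17Rik (gene at chr11:113043906-113201838) had 26, 20 and 27 counts in knock-in libraries, against 0 in each wild-type library. It was at least 22.9-fold higher against the same floor. Both passed the count filter only through the knock-in libraries, where they were high, so that their p-values rest on that choice and are not given. Among the 1344 tested RIKEN-named transcripts these were the 2 at 0 in all libraries of one genotype, or 0.149%, against 0.183% of all tested noncoding transcripts.

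**Figure D2:**
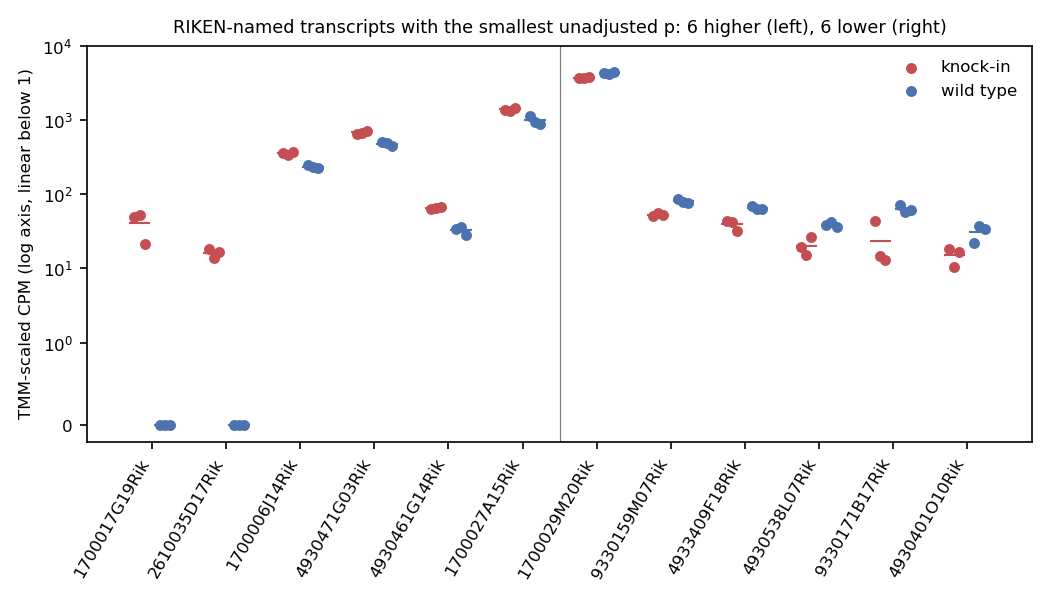
TMM-scaled CPM (vertical axis, log scale, linear below 1) in each library for the RIKEN-named transcripts with the smallest unadjusted p, 6 higher in the knock-in (left of the line) and 6 lower (right). Points are libraries, red for the knock-in and blue for the wild type, and short lines are means of 3; for the transcripts of 1700017G19Rik and 2610035D17Rik all wild-type points lie at 0.

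The levels of these genes as a whole were not at 0 in the wild type. The other transcript of 1700017G19Rik, ENSMUST00000035860, had 158, 132 and 184 counts in knock-in libraries, against 168, 236 and 152 counts in wild-type libraries, which overlapped. Summed over both, the gene had 229, 208 and 219 counts in knock-in libraries, against 168, 236 and 152 counts in wild-type libraries, a log2 fold change of 0.15 ± 0.17. The summed counts of 2610035D17Rik were 111, 126 and 129 in knock-in libraries, against 121, 104 and 116 in wild-type libraries, a log2 fold change of 0.01 ± 0.14. So the difference of these single transcripts was not seen in the summed counts of their genes. How the authors divided reads among overlapping transcripts is not given in the sources used here, and its part in these values was not tested.

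A split of this kind also varied between libraries of one genotype. ENSMUST00000056711 of 4933427E11Rik (gene at chr15:74709161-74710374) had 464, 467 and 0 counts in knock-in libraries, against 0 in each wild-type library, and so did not pass the filter. The other transcript, ENSMUST00000185751, had 204, 103 and 784 counts in knock-in libraries, against 711, 610 and 561 counts in wild-type libraries. The gene's sum was 668, 570 and 784 counts in knock-in libraries, against 711, 610 and 561 counts in wild-type libraries, with overlap and a log2 fold change of 0.01 ± 0.11. Knock-in library 3 thus looked like the wild-type libraries in this split and unlike the other knock-in libraries.

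Across all 266 symbols with at least 2 tested transcripts, the share of counts in the major transcript did not overlap between genotypes for 37, or 13.9%, and in 12 of these it differed by 10 percentage points or more. Over all 952 annotated noncoding symbols with at least 2 tested transcripts, it did not overlap for 16.3%, and for 8.30% it also differed by that much. An abundant case was 1700029M20Rik (gene at chr4:135626655-135630198), whose transcripts differed in opposite directions. Its major transcript, ENSMUST00000153347, had 5369, 5288 and 6118 counts in knock-in libraries, against 6291, 6005 and 6013 counts in wild-type libraries. Scaled for depth this was 3685 ± 44.6 CPM in the knock-in and 4273 ± 79.2 CPM in the wild type (SD, n = 3 each), which gave a log2 fold change of -0.21 ± 0.04 without overlap and an edgeR adjusted p of 0.138. Its other tested transcript, ENSMUST00000134416, had 1228, 1265 and 1558 counts in knock-in libraries, against 1096, 1030 and 925 counts in wild-type libraries, a log2 fold change of 0.32 ± 0.08 and an edgeR adjusted p of 0.219. The major transcript held 80.5 ± 0.822% of the gene's counts in the knock-in and 85.7 ± 0.803% in the wild type (SD, n = 3 each, exact permutation p = 0.1, the smallest that 3 against 3 can give). This gene was taken for the test after its values were seen, and shares without overlap always give that p, so it adds no support.

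**Figure D3:**
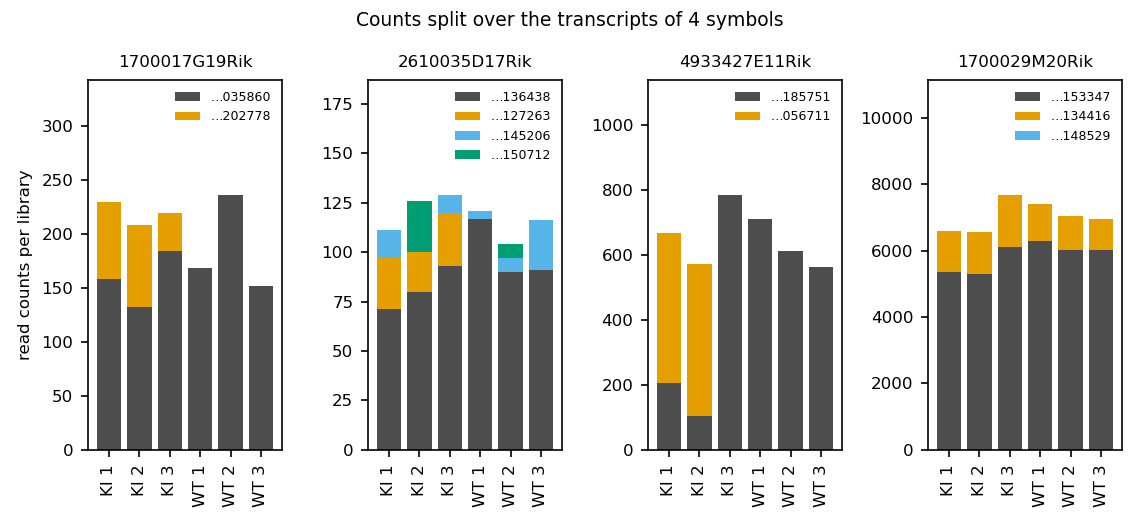
Read counts per library (vertical axis), stacked by transcript, for 4 RIKEN-named symbols; bars are the 3 knock-in (KI) and then the 3 wild-type (WT) libraries, and the legends give the last digits of the transcript identifiers. The orange transcripts of the first 2 symbols are at 0 in every wild-type bar while the bar heights overlap between genotypes, and for 4933427E11Rik the third knock-in bar has the split of the wild-type bars.

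Among transcripts lower in the knock-in, those with the smallest p after 1700029M20Rik were 5 transcripts of moderate or low abundance. These too were picked by p, so a lack of overlap among them adds no support. 9330159M07Rik (ENSMUST00000180783) had 73, 81 and 85 counts in knock-in libraries, against 126, 111 and 104 counts in wild-type libraries. For 4933409F18Rik (ENSMUST00000221910) the counts were 63, 61 and 52 in knock-in libraries, against 100, 90 and 87 in wild-type libraries. 4930538L07Rik (ENSMUST00000226197) had 28, 22 and 43 counts in knock-in libraries, against 56, 60 and 50 counts in wild-type libraries. The groups did not overlap for any of these 3, and the log2 fold changes were -0.60 ± 0.15, -0.73 ± 0.18 and -0.93 ± 0.26 in that order, with edgeR adjusted p-values of 0.232, 0.239 and 0.293. Summed over transcripts, the genes had log2 fold changes of -0.22 ± 0.09, -0.24 ± 0.14 and -0.69 ± 0.19 in the same order. The sums of 4933409F18Rik were 181, 183 and 170 counts in knock-in libraries, against 203, 176 and 214 counts in wild-type libraries, which overlapped. Its other transcript, ENSMUST00000222026, also overlapped, with a log2 fold change of 0.09 ± 0.19.

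9330171B17Rik (ENSMUST00000035939) had 62, 21 and 21 counts in knock-in libraries, against 104, 83 and 83 counts in wild-type libraries. Knock-in library 1 stood nearer to the wild type than the others did. The log2 fold change was -1.44 ± 0.43 with an edgeR adjusted p of 0.354, and without that library it was -2.21 with an edgeR adjusted p of 0.0392. That was the only call among the 6 fits with 1 library left out, and at the other end the value was -1.14, with adjusted p-values of up to 0.627. 4930401O10Rik (ENSMUST00000128489) had 26, 15 and 27 counts in knock-in libraries, against 32, 54 and 47 counts in wild-type libraries, a log2 fold change of -1.06 ± 0.32 and an edgeR adjusted p of 0.378. Summed over transcripts, 9330171B17Rik had 890, 839 and 1104 counts in knock-in libraries, against 1028, 985 and 922 counts in wild-type libraries, which overlapped.

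Among transcripts that did not pass the filter, 3 others were at 0 in one genotype with the highest summed counts in the other. ENSMUST00000153552 of 1700047A11Rik had 22, 18 and 10 counts in knock-in libraries, against 0 in each wild-type library, at least 15.7-fold higher against the same floor. Its gene's sums were 24, 26 and 21 counts in knock-in libraries, against 6, 7 and 7 counts in wild-type libraries, a log2 fold change of 1.73 ± 0.37. The other transcript, ENSMUST00000144750, had 2, 8 and 11 counts in knock-in libraries, against 6, 7 and 7 counts in wild-type libraries, which overlapped. So the gap between the sums came from the transcript picked for its 0 and adds no support. The wild-type sums lie under the filter's minimum count of 10. The gene was thus tested only through the knock-in libraries, where it was high, and its p-value is not given. ENSMUST00000225426 of 3830408C21Rik was at 0 in each knock-in library, against 9, 16 and 18 counts in wild-type libraries, at least 15.2-fold lower, while its gene's sums were 22, 41 and 22 counts in knock-in libraries, against 23, 28 and 24 counts in wild-type libraries. ENSMUST00000212453 of 4932416K20Rik was at 0 in each knock-in library, against 10, 0 and 26 counts in wild-type libraries. There the gene's sum ran the other way, with 275, 283 and 252 counts in knock-in libraries, against 172, 182 and 203 counts in wild-type libraries, a log2 fold change of 0.45 ± 0.14 and an edgeR adjusted p of 0.335 over all symbols.

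The most abundant RIKEN-named transcript was ENSMUST00000206013 of 4930571K23Rik (gene at chr7:125368861-125371013), which held 343 ± 16.0 FPKM in the knock-in and 314 ± 8.43 FPKM in the wild type (SD, n = 3 each). It had 17571, 16309 and 19755 counts in knock-in libraries, against 16088, 15328 and 14173 counts in wild-type libraries. After scaling, all knock-in libraries lay above all wild-type libraries, by a log2 fold change of 0.15 ± 0.05 with an edgeR adjusted p of 0.382. The gene alone took 8.71% of RIKEN-named counts, and RefSeq lists it as protein-coding although it stands in the noncoding table. Without it the class took 12.2 ± 0.292% of noncoding counts in the knock-in and 11.9 ± 0.123% in the wild type (SD, n = 3 each, exact permutation p = 0.3).

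Next in abundance by counts came the major transcript of 1700029M20Rik, described above. After it, 2900097C17Rik (ENSMUST00000192863) had 3645, 3955 and 4206 counts in knock-in libraries, against 3889, 4125 and 3685 counts in wild-type libraries. 1700001L05Rik (ENSMUST00000178628) had 2735, 3150 and 3140 counts in knock-in libraries, against 3067, 3058 and 2833 counts in wild-type libraries. Both overlapped, at log2 fold changes of -0.07 ± 0.06 and -0.07 ± 0.07. 1700009J07Rik (ENSMUST00000185309) had 2898, 2559 and 3119 counts in knock-in libraries, against 2674, 2514 and 2296 counts in wild-type libraries, a log2 fold change of 0.11 ± 0.07. For 4930488L21Rik (ENSMUST00000212638) the counts were 2508, 2135 and 2776 in knock-in libraries, against 2209, 2151 and 1874 in wild-type libraries, a log2 fold change of 0.16 ± 0.08. These 2 overlapped after scaling as well. Of the remaining most abundant transcripts by counts, ENSMUST00000186479 of 1700008K24Rik (log2 fold change 0.09 ± 0.06) lay above the wild type without overlap, ENSMUST00000204642 of 9330102E08Rik (-0.10 ± 0.06) lay below it without overlap, and those of 1700022A21Rik (0.10 ± 0.08) and 4930403D09Rik (-0.08 ± 0.08) overlapped. Their edgeR adjusted p-values lay between 0.661 and 0.814. Of the other transcripts of 1700008K24Rik, ENSMUST00000188649 (0.40 ± 0.09) and ENSMUST00000190269 (0.39 ± 0.12) were also higher without overlap, with edgeR adjusted p-values of 0.184 and 0.382. ENSMUST00000188649 is the one that DESeq2 called. ENSMUST00000185974 and ENSMUST00000187177 overlapped, and the summed gene had a log2 fold change of 0.12 ± 0.06.

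Per length, the order was another one. By the mean of all 6 libraries, 4930571K23Rik was followed by 1700027A15Rik, 1700016P04Rik, 1700018B24Rik and 4930403D09Rik. ENSMUST00000186770 of 1700016P04Rik had 156, 129 and 140 FPKM in knock-in libraries, against 173, 155 and 154 FPKM in wild-type libraries, which overlapped. ENSMUST00000036023 of 1700018B24Rik, which RefSeq lists as a transcribed pseudogene, had 151, 149 and 148 FPKM in knock-in libraries, against 137, 143 and 141 FPKM in wild-type libraries, without overlap. 4930403D09Rik, whose promoter with 2 MYB sites is shown above, averaged 135 ± 9.73 FPKM in the knock-in and 144 ± 9.83 FPKM in the wild type (SD, n = 3 each). The order after 4930571K23Rik was not the same in both genotypes. 1700027A15Rik was the highest of the rest in the knock-in (191 FPKM) and the lowest of them in the wild type (138 FPKM). Among the last 3, 1700018B24Rik was the highest in the knock-in, and 1700016P04Rik in the wild type.

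The nearest mRNA gene was looked up for the most abundant transcripts. 4930571K23Rik lay 73607 bases from Kdm8, 1700029M20Rik 53023 bases from Grhl3, 1700001L05Rik 3472 bases from Arfgap3 and 1700009J07Rik 1464 bases from Lrrc3, and 4930488L21Rik overlapped Gnao1, which encodes a G protein subunit. None of these 5 coding genes was called in the mRNA test, where 0.982% of 15787 genes were. Gnao1 had 1402, 1560 and 1772 counts in knock-in libraries, against 1565, 1457 and 1401 counts in wild-type libraries, a log2 fold change of -0.00 ± 0.07. In FPKM it had 18.9, 17.2 and 18.4 in knock-in libraries, against 15.6, 12.7 and 15.5 in wild-type libraries, without overlap. Why counts and FPKM differ for Gnao1 was not tested. Arfgap3, a regulator of vesicle coats at the Golgi, had 1170, 941 and 1265 counts in knock-in libraries, against 1006, 847 and 819 counts in wild-type libraries, a log2 fold change of 0.24 ± 0.11 with an edgeR adjusted p of 0.426.

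1700027A15Rik is the RIKEN-named gene next to Tnp1, which encodes transition protein 1, a nuclear protein that stands in for histones in elongating spermatids before protamines are laid down. RefSeq places the start of Tnp1 at the end of chr1:73015074-73015899 and that of 1700027A15Rik at the beginning of chr1:73016036-73025508, so that the genes run apart from starts 137 bases away from each other and do not overlap. The promoter windows of both hold 236 bases in common, identical once one is read on the other strand, and the stretch in capitals in the first sequence above is the DNA between them. ENSMUST00000190525 of 1700027A15Rik had 1980, 1924 and 2389 counts in knock-in libraries, against 1657, 1356 and 1202 counts in wild-type libraries. Its level was 191 ± 8.54 FPKM in the knock-in and 138 ± 18.1 FPKM in the wild type (SD, n = 3 each). All knock-in libraries lay above all wild-type libraries, by a log2 fold change of 0.49 ± 0.10 with an edgeR adjusted p of 0.138.

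Tnp1 (ENSMUSG00000026182) had 17492, 14056 and 20360 counts in knock-in libraries, against 12728, 11577 and 9335 counts in wild-type libraries. It averaged 1554 ± 206 FPKM in the knock-in and 1085 ± 128 FPKM in the wild type (SD, n = 3 each), without overlap. Its log2 fold change was 0.53 ± 0.12, with an edgeR adjusted p of 0.0859 over the mRNA table. With 1 library left out, the log2 fold change lay between 0.43 and 0.65, and the edgeR adjusted p between 0.0252 and 0.337. It was called in 1 of these 6 fits, the one without knock-in library 2. The summed level of the 4 elongating-spermatid markers, Tnp1 among them, lay between 6027 and 7690 CPM in knock-in libraries and between 5878 and 7390 CPM in wild-type libraries, which overlapped. Of the 4 markers 1 was called, which was not Tnp1, and its direction is not given here. The part of cell composition in the values of 1700027A15Rik and Tnp1 was not tested.

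**Figure D4:**
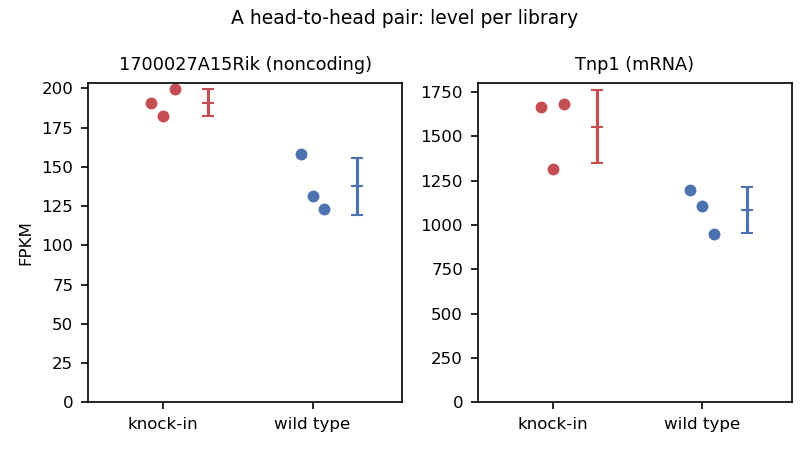
FPKM (vertical axes, each from 0) of 1700027A15Rik and of Tnp1, whose starts lie head to head, in the 3 knock-in (red) and 3 wild-type (blue) libraries; points are libraries and bars are means with SD. All knock-in points lie above all wild-type points in both panels, and Tnp1 is the more abundant (1554 FPKM in the knock-in and 1085 FPKM in the wild type, where 1700027A15Rik has 191 FPKM in the knock-in and 138 FPKM in the wild type).

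Some other symbols also had starts that run apart from a nearby coding gene, and no share over other promoters was computed. Of 1185 symbols with a promoter window, 206 had an opposite-strand coding start within 1000 bases, and for 146, or 12.3%, both genes pointed away from each other, at a median distance of 118 bases. Both genes were tested in 96 of these pairs. The coding gene was the more abundant per length in 84 of them, with medians of 13.8 FPKM for coding genes and 1.81 FPKM for the summed RIKEN-named transcripts. The signs of the log2 fold changes matched in 46 of the 96, and across pairs the fold changes had a Spearman correlation of -0.03 and a Pearson correlation of -0.09, given as a description since pairs share libraries. None of the 96 coding partners was called by edgeR, where 0.982% of mRNA genes were, a share near which 0 of 96 lies.

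Both genes had an unadjusted p under 0.05 in 3 of the pairs. Besides 1700027A15Rik and Tnp1, these were 1700012C08Rik with Tmem53, 34 bases apart, and 4933406C10Rik with Sypl, 156 bases apart. The log2 fold changes were -0.85 for 1700012C08Rik and -0.20 for Tmem53. They had opposite signs in the last pair, 0.36 for 4933406C10Rik and -0.20 for Sypl, a gene for a synaptophysin-like membrane protein. The Tmem53 and Sypl pairs were chosen after their values were seen.

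A few of these RNAs have a known role or locus. 1810026B05Rik is Chaserr in RefSeq, a noncoding RNA that lies upstream of the chromatin remodeler gene Chd2 and lowers its expression in mice. Its 6 transcripts together had 134, 143 and 150 counts in knock-in libraries, against 125, 129 and 105 counts in wild-type libraries, a log2 fold change of 0.16 ± 0.13 with an edgeR adjusted p of 0.766 over all symbols. The highest per length, ENSMUST00000190028, had 3.19, 3.40 and 3.04 FPKM in knock-in libraries, against 4.04, 3.23 and 3.46 FPKM in wild-type libraries, which overlapped. 4933407K13Rik (chrX:75725458-75764699) is the transcript of the Dxz4 region, a repeat array at which the inactive X of female cells folds. Its 5 transcripts together had 93, 110 and 106 counts in knock-in libraries, against 88, 112 and 92 counts in wild-type libraries, a log2 fold change of -0.01 ± 0.17.

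The X chromosome, which is silenced during male meiosis and carries Taf7l, held few of these genes. RefSeq places 32 of the matched symbols there, and 17 of their transcripts were tested, with a median of 1.04 FPKM, against 1.55 FPKM for the 1101 tested on autosomes. The median log2 fold change was -0.01 on the X and 0.03 on autosomes. Genotypes did not overlap for 3 of the 17, or 17.6%, and all 3 were lower in the knock-in. On autosomes they did not overlap for 17.1%. No tested transcript lay on the Y chromosome.

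Fold changes varied with transcript length. A relative length was derived from the ratio of counts to FPKM for 1226 of the 1344 tested transcripts, or 91.2%. The 8574 tested noncoding transcripts with such a length were divided by it into 5 classes of nearly equal size. In the shortest class, the log2 fold changes of the 276 RIKEN-named transcripts had a median of 0.14, and 38 (13.8%) lay above and 5 (1.81%) below the wild type without overlap. Of the 1439 other noncoding transcripts in that class, 149 (10.4%) lay above and 107 (7.44%) below without overlap. From the second to the longest class the medians were 0.09, 0.06, -0.01 and -0.03, over 212, 267, 282 and 189 transcripts. Other noncoding transcripts had medians of 0.07, -0.00, 0.01, -0.01 and -0.03 in the same classes. Within the RIKEN-named transcripts, those of testis clones had medians of 0.14, 0.09, 0.06, -0.00 and 0.03, from shortest to longest. Those of other clones had medians of 0.15, 0.09, 0.06, -0.05 and -0.07. In the longest class, 17 RIKEN-named transcripts (8.99%) lay above and 16 (8.47%) below without overlap, against 96 (6.29%) above and 140 (9.17%) below among 1526 other noncoding transcripts. The part of fragment size or RNA quality in this pattern was not tested.

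**Figure D5:**
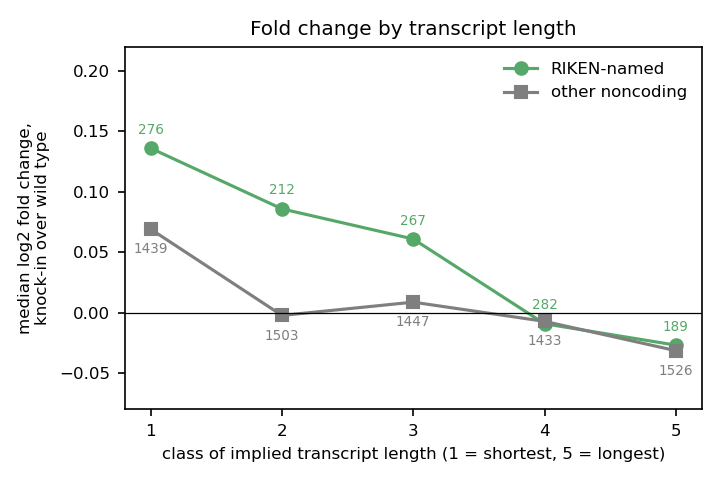
Median log2 fold change, knock-in over wild type (vertical axis), of tested RIKEN-named transcripts (green circles) and other tested noncoding transcripts (grey squares) in 5 classes of transcript length derived from counts and FPKM (horizontal axis, 1 = shortest); numbers are transcripts. The RIKEN-named medians run between 0.14 in the shortest and -0.03 in the longest class, and the other transcripts between 0.07 and -0.03.

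Circular RNAs, in which a splice joins the end of an exon back to an earlier start, were rare from these genes. The circle table held 109 circles of 62 RIKEN-named symbols, among 7391 in all. Together they had 178, 172 and 213 counts in knock-in libraries, against 148, 149 and 159 counts in wild-type libraries. Their share of circle counts was 1.07 ± 0.0260% in the knock-in and 0.998 ± 0.128% in the wild type (SD, n = 3 each, exact permutation p = 0.5), with overlap. Of 48 tested, none was called by edgeR, as for all 3887 tested circles (0.00%), and 4 had an unadjusted p under 0.05, against 191 of all circles. The highest count was that of a circle of 431 bases from exons of 4930414F18Rik, with 28, 22 and 22 counts in knock-in libraries, against 27, 18 and 22 counts in wild-type libraries. The next was a circle of 4933431K23Rik, with 20, 18 and 17 counts in knock-in libraries, against 12, 11 and 17 in wild-type libraries. A second circle of 4930414F18Rik had 7, 8 and 4 counts in knock-in libraries, against 7, 6 and 5 in wild-type libraries, and a circle of 1700001L05Rik had 7, 3 and 7 counts in knock-in libraries, against 4, 7 and 8 in wild-type libraries. At such counts only large differences could be seen.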

How the data were processed

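Per the labels' protocols, frozen testes gave Trizol-extracted total RNA, from which strand-marking total RNA libraries were built. Per the file headers, the authors deposited raw counts and FPKM per library for mRNA genes and noncoding transcripts, raw counts for circular RNAs with each circle's spliced length, and, for each transcript, a log2 ratio of mean FPKM with raw and adjusted p-values. Per the submitters' processing notes, reads were placed on mm10. Not given in the sources used here are the aligner, counter and annotation, whether counting used strand, and the name of the authors' test, although the adjusted p-values they deposited equal those of DESeq2 within 0.1%. Transcripts of one gene overlap each other, and some overlap or lie antisense to other genes, so that values of single transcripts are uncertain where reads are shared.

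The deposited counts of all noncoding transcripts were tested between 3 knock-in and 3 wild-type libraries with the quasi-likelihood test of edgeR 4.0.16 (limma 3.58.1 beneath it, in R 4.3.3), with TMM scaling, filterByExpr (minimum count 10, minimum total 15) and Benjamini-Hochberg adjustment over all 9301 tested transcripts. A transcript was called at an adjusted p under 0.05. The mRNA table was tested likewise, and circles needed a count in at least 3 of 6 libraries. Standard errors of log2 fold changes were derived from the test statistic. Overlap of genotypes was judged on TMM-scaled CPM. Sums per library were compared by two-sided exact permutation tests. P-values measure the spread between libraries, which may be technical. Depth limits precision: noncoding libraries hold 1384224 to 1647421 counts and circle libraries 14381 to 20127, and intervals of counting error are not given for single counts. Tested on simulated noncoding data with 9266 transcripts passing the filter, the edgeR test recovered 21 of 100 transcripts changed by 2-fold and 91 of 100 changed by 4-fold, and in the same simulation it also called 5 unchanged ones. All simulated transcripts had the same dispersion, a biological coefficient of variation of 26.4%. The recovery therefore does not describe transcripts whose spread differs from that.

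Implied lengths used libraries with at least 0.5 FPKM. DESeq2 1.42.0, limma on log2 FPKM, other scaling, no filter, sums per symbol, a replicate block and leaving out each library were alternatives. Symbols were matched to RefSeq by name. The RIKEN-named members and all lists were chosen with earlier results of these data known. Named were the 10 tested members with the highest CPM and the 5 with the highest FPKM, the 6 with the smallest p in each direction, up to 2 untested members per direction at 0 in one genotype, Chaserr and Dxz4, the nearest mRNA gene of the 6 most abundant and up to 4 circles; others are said to be chosen after their values were seen.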

Additional observations from a re-analysis of the deposited data

How the results depend on the processing

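The noncoding test called 9 transcripts, 0 of them RIKEN-named. Other settings called more: DESeq2 114 (10 RIKEN-named), no filter 129 (9), limma on FPKM 23 (3) with a pseudocount of 0.1 and 39 (5) with a pseudocount of 1. Scaling by the mRNA table called 10 (1, of 1700017G19Rik). Leaving out 1 library gave 6 to 15 noncoding and 0 to 2 RIKEN-named calls: 1 without knock-in library 1 (9330171B17Rik) and 2 without knock-in library 3 (1700017G19Rik and 4933427E11Rik). ENSMUST00000202778 of 1700017G19Rik and ENSMUST00000056711 of 4933427E11Rik are at 0 in every wild-type library. They can pass the filter only through knock-in libraries, so calls of these transcripts rest on that choice. Leave-one-out counts of mRNA genes, added after seeing the data, ran from 11 (without knock-in library 3) to 125, against 155, with 74, 32 and 20 without wild-type libraries 1, 2 and 3, and circles stayed at 0. Libraries share replicate numbers only: the deviations of same-numbered libraries correlated at -0.01, 0.01 and -0.02, and the replicate block called 2 noncoding and 0 RIKEN-named transcripts. The knock-in minus wild-type share of RIKEN-named counts ran from 0.284 to 0.595 percentage points without 1 library, against 0.392, and the log2 ratio to Gm-named counts differed by 0.04 to 0.09, against 0.06. For single transcripts, ENSMUST00000130744 of 4933407K13Rik had a log2 fold change of -0.06, but of 0.03 without wild-type library 2 and 0.0497 without knock-in library 3, with -0.22 as the lowest without 1 library; the cause was not tested. Of the other values of named features under an alternative, 315 kept direction and side of the threshold and 25 gained a call. A 2-fold difference was recovered in 21 of 100 simulated noncoding transcripts, all drawn with the same dispersion. Differences of that size could thus be missed at this depth for transcripts with such a spread.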
